A study of Homo sapiens with 6 samples.

Results

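HERVH-int and the 4 LTR7 names (LTR7, LTR7Y, LTR7B and LTR7C) were taken by their row names from a table of read counts per repeat name, and all 5 were found among its 15641 names. Each row stands for a repeat name and not for a single genomic copy, so a value belongs to a subfamily and has no single coordinate. The RNA came from the chromatin fraction of H9, an established line of human embryonic stem cells. It was sequenced in 3 libraries labelled naive, the state that RSeT medium is sold to maintain, and 3 labelled primed, the state of conventional human embryonic stem cell culture. No other agent or allele is given for either group, and the labels attach the RSeT growth protocol to all 6 libraries, so the primed state rests on the treatment label alone. Separate cultures are not mentioned in the labels, so p-values speak only of the spread among these libraries, which may be technical. None of 20 marker genes of pluripotent, naive, primed or differentiated cells has a row (0 found), so the labelled states could not be checked against marker genes.

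HERVH is a group of primate endogenous retroviruses, the inherited remains of germline infections. An intact copy has an internal region, named HERVH-int here, between a pair of long terminal repeats (LTRs) of the LTR7 group, and the upstream LTR holds the promoter. Recombination between the LTRs often leaves an LTR on its own. In human pluripotent cells LTR7 is bound by pluripotency factors such as OCT4 and NANOG, and HERVH transcripts are known as abundant nuclear RNAs. The LTR7 subfamilies differ in sequence: LTR7 is the one best known from cultured embryonic stem cells, LTR7Y has been linked to naive cells and the blastocyst, and LTR7B and LTR7C are further variants. Because subfamilies resemble each other, and no source used here says how multi-mapping reads were counted, reads may have moved between these names.

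Total counts ranged from 9748202 to 17791046 in the naive libraries, while the primed libraries had 7192242, 118793 and 8106871. Primed library 2 was therefore far shallower, and a repeat with 3 counts there stands at 25.3 CPM (counts scaled to a common library total). Alpha satellite, the centromeric tandem repeat, took 25.3% to 42.9% of naive counts and 0.221% to 0.625% of primed counts. Ribosomal RNA entries took 6.08%, 5.58% and 0.169% of the counts in the naive and 17.7%, 4.04% and 8.01% in the primed libraries. Values per library total depend on both. TMM scaling (trimmed mean of M-values) sets most repeats level between libraries, and its factors ran from 0.628 to 0.903 in naive and from 1.102 to 1.51 in primed libraries. Both scales are given for each member, and 3 values of a group stand in the order of library 1, 2 and 3.

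HERVH-int, the internal region that makes up most of a HERVH transcript, had higher values in naive cells on both scales, and so did LTR7. The test called them only after scaling for library composition, and then not with every choice of names fitted. HERVH-int had 239806, 473613 and 343286 counts in the naive and 128302, 2134 and 145435 in the primed libraries. On the TMM scale this was 27277, 42442 and 24094 CPM in the naive and 16230, 11938 and 14484 CPM in the primed libraries. Naive library 2 was the highest and had the smallest TMM factor, and the lowest naive library still lay above the highest primed one. Per library total HERVH-int stood at 24600, 26621 and 20555 CPM in the naive and 17839, 17964 and 17940 CPM in the primed libraries. The primed libraries were thus nearly level on that scale and more spread on the TMM scale, and the groups did not overlap on either. In bulk RNA of the chromatin fraction, more cells with HERVH RNA in that fraction and more such RNA per cell cannot be told apart.

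In the count model HERVH-int rose by 1.14 ± 0.20 (log2, naive minus primed, SE), which is 2.20-fold (edgeR's quasi-likelihood test with Benjamini-Hochberg adjustment, adjusted p = 0.0106). This change lay above that of 97.9% of the 3219 repeat names tested. Of these, 1265 were named repeats, with a median change of 0.21 against -0.0046 for all names, and the rest were simple repeats. With TMM scaling 4.94% of the names tested were called higher (adjusted p under 0.05) and 7.77% lower, and among the 5 members 2 were called higher and 0 lower. Among named repeats alone, with simple repeats aside, 10.4% were called higher. Of the names tested, 19.4% had all naive libraries above all primed ones on the TMM scale, but only 1.68% did so per library total, where HERVH-int and LTR7 were among them. Without primed library 1, the fit with the fewest calls of those that leave out 1 library, 15 of 3472 names passed, and HERVH-int was among them at 1.22 (edgeR adjusted p = 0.0320).

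LTR7, the LTR that carries the promoter of most HERVH copies transcribed in embryonic stem cells, was at 1059, 1574 and 1085 TMM-scaled CPM in the naive and at 766, 565 and 689 CPM in the primed libraries. As for HERVH-int, naive library 2 was the highest and primed library 2 the lowest, and the groups did not overlap. Per library total the naive values were 955, 987 and 925 CPM and the primed values 841, 850 and 853 CPM, so the gap between the groups was narrow on that scale. LTR7 rose by 0.87 ± 0.18 (log2, SE; 1.82-fold, edgeR adjusted p = 0.0156). Without primed library 1 its change was 0.95 and did not pass (edgeR adjusted p = 0.0649).

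LTR7Y, the subfamily linked to naive cells, was rare, with 340, 623 and 682 counts in the naive and 240, 7 and 327 in the primed libraries. On the TMM scale it was at 38.7, 55.8 and 47.9 CPM in the naive and 30.4, 39.2 and 32.6 CPM in the primed libraries. The groups overlapped only through primed library 2, whose 7 counts carry a counting error of 37.8%. The change of 0.56 ± 0.19 (log2, SE) did not pass (edgeR adjusted p = 0.0686). Per library total the means were 36.9 ± 3.40 and 44.2 ± 13.2 CPM (SD, n = 3) in naive and primed libraries. The higher primed mean on that scale rests on primed library 2 (58.9 CPM), without which it was 36.9 CPM, the same as in the naive libraries. Without naive library 1 the TMM-scaled change was 0.72 and passed (edgeR adjusted p = 0.0234).

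LTR7B, the second most counted of the 4 LTR7 names, was at nearly the same mean in both groups on the TMM scale. It had 283, 299 and 322 CPM in the naive and 346, 162 and 345 CPM in the primed libraries. Primed libraries 1 and 3 lay above every naive library, and primed library 2, which rests on 29 counts, lay below them all. The log2 change was 0.01 ± 0.21 (SE; edgeR adjusted p = 0.990), and -0.18 without primed library 2 (edgeR adjusted p = 0.299). Per library total LTR7B averaged 239 ± 45.9 CPM in the naive and 351 ± 95.3 CPM in the primed libraries (SD, n = 3), again with overlap through primed library 2.

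LTR7C, the name with the fewest counts in the naive libraries, had 198, 439 and 559 counts in the naive and 367, 7 and 381 in the primed libraries. On the TMM scale this was 22.5, 39.3 and 39.2 CPM in the naive and 46.4, 39.2 and 37.9 CPM in the primed libraries. Naive library 1 was the low value, and the other libraries overlapped. The change of -0.31 ± 0.23 (log2, SE) did not pass (edgeR adjusted p = 0.396). Per library total LTR7C was at 20.3, 24.7 and 33.5 CPM in the naive and 51.0, 58.9 and 47.0 CPM in the primed libraries, which did not overlap. On that scale 34.3% of all names tested likewise had every naive library below every primed one.

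**Figure D1:**
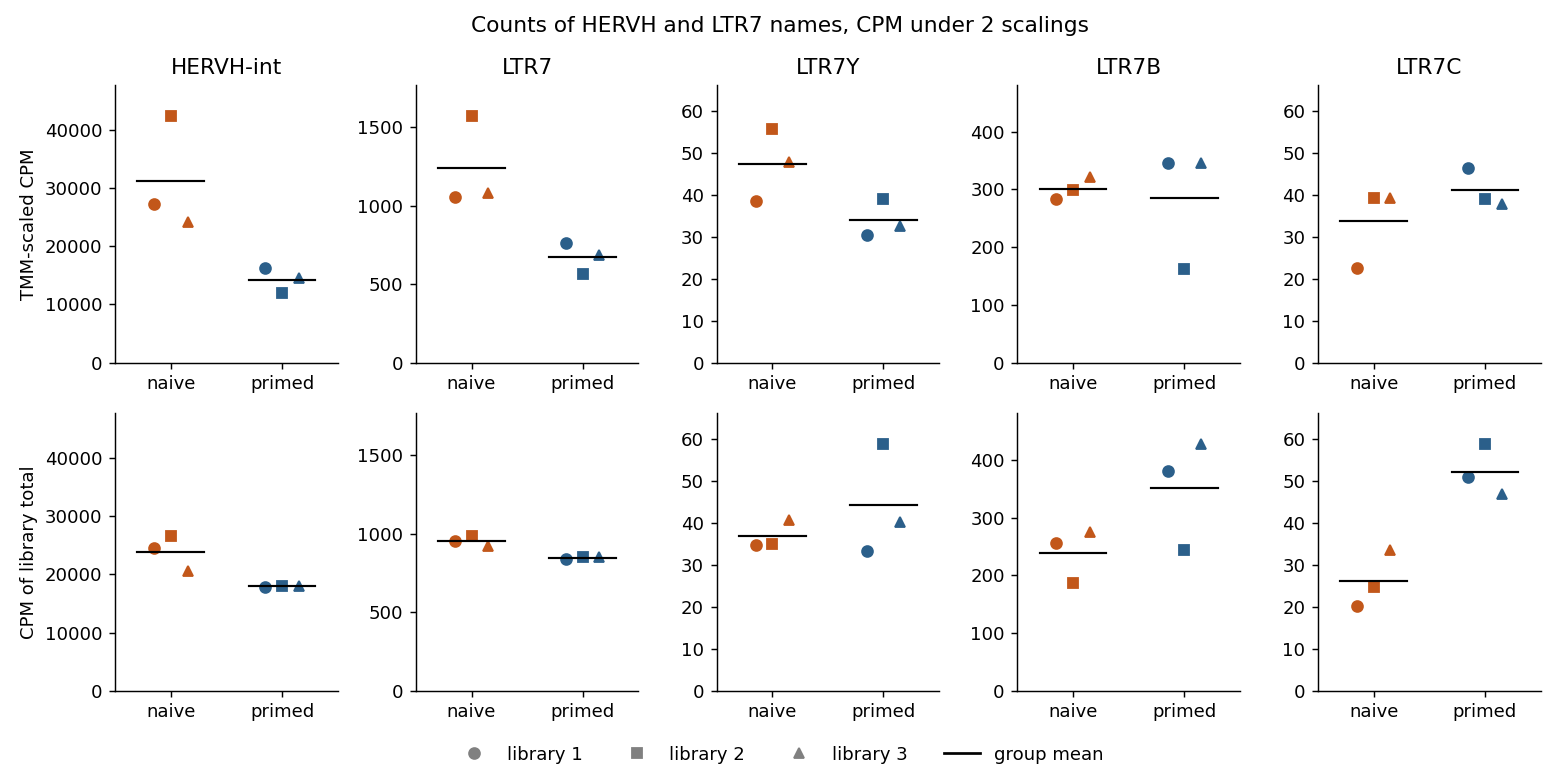
CPM of HERVH-int, LTR7, LTR7Y, LTR7B and LTR7C (columns) in each naive and primed library, TMM-scaled in the top row and per library total in the bottom row, with 1 point per library and a line at each group mean. For HERVH-int and LTR7 all naive points lie above all primed points in both rows, whereas LTR7Y, LTR7B and LTR7C overlap on the TMM scale.

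In order of size the member changes were those of HERVH-int, LTR7, LTR7Y, LTR7B and LTR7C, and this order held in 6 of 6 fits without 1 library. HERVH-int lay above LTR7C by 1.44 on the log2 scale, and by 1.29 to 1.73 over those 6 fits. Another scaling moves all members by nearly the same amount, so it bears on their position around 0 and not on their order. With library size as the only scaling the median of all names tested moved from -0.0046 to -0.61, and neither HERVH-int (0.42; edgeR adjusted p = 0.225) nor LTR7 (0.17; edgeR adjusted p = 0.619) passed. In that fit LTR7C fell by 0.94 and passed (edgeR adjusted p = 0.00893), where 32.6% of all names tested were called lower and 0.87% higher. When only names starting with HERV or LTR were fitted, so that the typical name among these was set level, HERVH-int gave 0.77 (edgeR adjusted p = 0.158) and LTR7 gave 0.49 (edgeR adjusted p = 0.122), where 2.35% of the names fitted were called higher and 3.36% lower. Without simple repeats HERVH-int was at 0.90 (edgeR adjusted p = 0.0532) and LTR7 at 0.62 (edgeR adjusted p = 0.0751), where 2.45% were called higher and 1.34% lower. With alpha satellite and ribosomal RNA entries taken out, both passed, HERVH-int at 1.08 (edgeR adjusted p = 0.00980) and LTR7 at 0.81 (edgeR adjusted p = 0.0147).

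**Figure D2:**
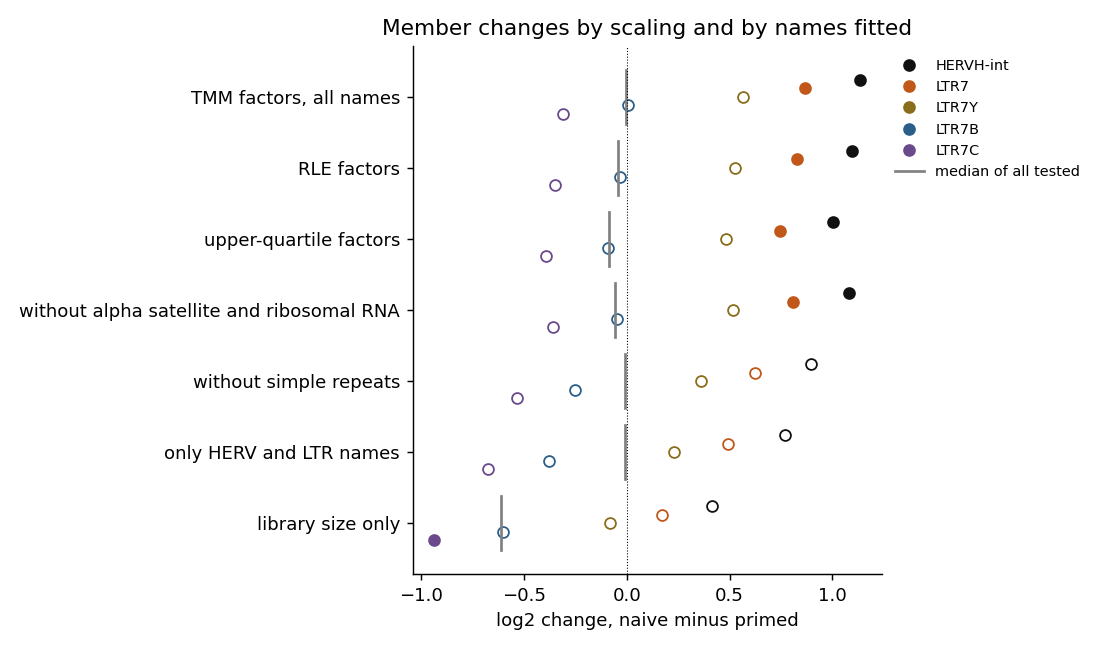
Log2 change, naive minus primed (x axis), of the 5 members under 7 choices of scaling or of names fitted (y axis). Filled points have an edgeR adjusted p under 0.05, and the grey bar is the median of all names tested in that fit. Another scaling shifts the members together, and HERVH-int and LTR7 are filled in the first 4 rows.

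In the make-up of the LTR7 counts, which needs no library scaling, the groups did not overlap in the shares of LTR7, higher in naive libraries, and LTR7C, lower in naive libraries. The 4 LTR7 names together had 12333, 21959 and 21287 counts in the naive and 9395, 144 and 11089 in the primed libraries. LTR7 took 75.5%, 80.0% and 72.6% of these counts in the naive and 64.4%, 70.1% and 62.4% in the primed libraries. On that ratio to the LTR7-name sum 2.11% of the names tested beside HERVH-int had every naive library above every primed one, and LTR7, itself the bulk of the sum, was among them. The gap was 10.4 percentage points between the means (76.0% ± 3.72 against 65.6% ± 4.03, SD, n = 3; exact two-sided permutation p = 0.1). That is the smallest p that 3 against 3 libraries can give, so no share could pass 0.05, and adjusted over the 12 shares and ratios tested it is 0.15 (exact permutation test). In the shallow primed library 2 the 95% Wilson interval of the LTR7 share, which covers counting error only, ran from 62.2% to 77.0%, a range that takes in the shares of naive libraries 1 and 3.

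LTR7B took 20.2%, 15.2% and 21.6% of LTR7-name counts in the naive and 29.1%, 20.1% and 31.3% in the primed libraries. Primed libraries 1 and 3 stood above all naive libraries, whereas primed library 2 fell among them with a 95% Wilson interval of 14.4% to 27.4%. The difference of -7.87 percentage points between the means did not separate the groups (exact permutation p = 0.3). It was -11.2 points without primed library 2. Since that library alone overlapped, leaving it out had to separate the groups. The p-value was then bound to be the smallest that 3 against 2 libraries can give (exact permutation p = 0.1), so it adds no support. Per 100 LTR7 counts there were 26.7, 19.0 and 29.7 LTR7B counts in the naive libraries and 45.2, 28.7 and 50.1 in the primed ones.

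LTR7C took 1.61%, 2.0% and 2.63% of LTR7-name counts in the naive and 3.91%, 4.86% and 3.44% in the primed libraries. Its share was lower in every naive library, at 2.08% ± 0.515 against 4.07% ± 0.726 (SD, n = 3; exact permutation p = 0.1). The 95% Wilson interval in primed library 2 was wide, from 2.37% to 9.69%, and without that library the difference was -1.59 points. A lower ratio to the LTR7-name sum was common, since 31.9% of the other names tested had every naive library below every primed one on that ratio.

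LTR7Y took a similar share in both groups, with 2.76%, 2.84% and 3.20% in the naive and 2.55%, 4.86% and 2.95% in the primed libraries. The high value belongs to primed library 2 and has a 95% Wilson interval of 2.37% to 9.69%. The difference between the means was -0.52 points (exact permutation p = 0.8), and 0.18 points without primed library 2 (exact permutation p = 0.6). The LTR7Y share thus gave no difference beyond the spread between libraries, in either direction.

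**Figure D3:**
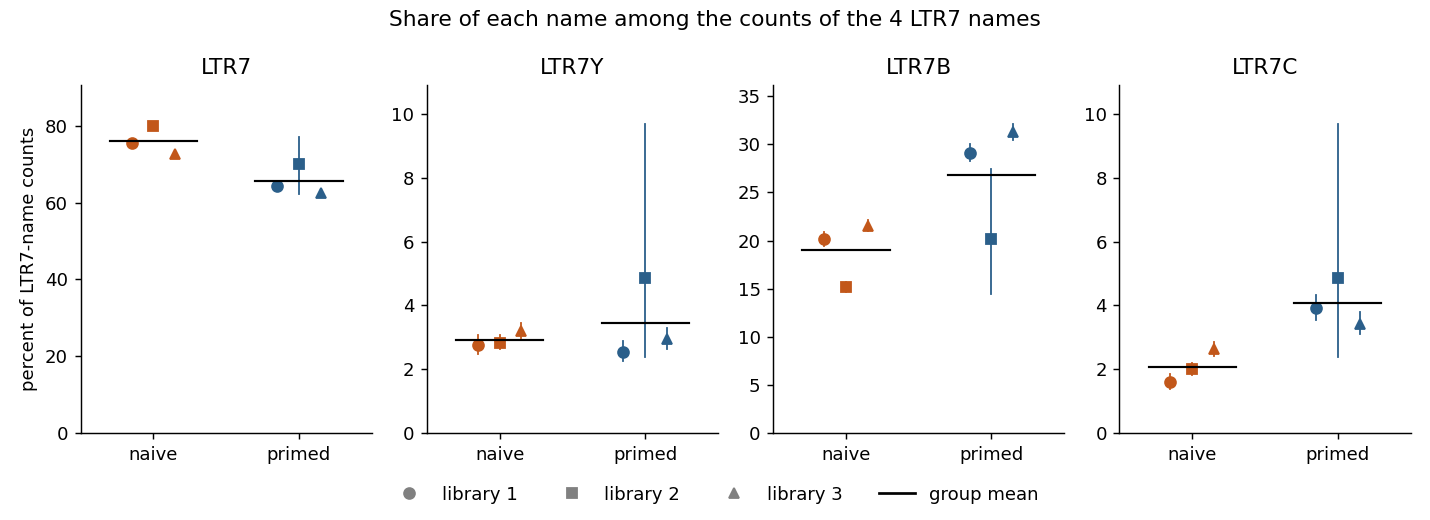
Percent of the summed LTR7, LTR7Y, LTR7B and LTR7C counts taken by each name (1 panel each) in every naive and primed library. Points are libraries, vertical lines are 95% Wilson intervals and horizontal lines are group means. LTR7 lies between 72.6% and 80.0% in naive and between 62.4% and 70.1% in primed libraries, LTR7C is lower in every naive library, and the wide intervals belong to primed library 2.

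Relative to the internal region, LTR names had fewer counts in naive than in primed libraries. For every 100 HERVH-int counts there were 5.14, 4.64 and 6.20 LTR7-name counts in the naive and 7.32, 6.75 and 7.62 in the primed libraries. The naive libraries lay below all primed ones, with naive library 3 nearest to them, and the mean log2 ratio differed by -0.45 (exact permutation p = 0.1; adjusted 0.15). This ratio counts reads and not copies, and it does not separate LTRs of full copies from LTRs on their own.

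LTR7 followed HERVH-int most closely. Its log2 ratio to HERVH-int was -4.69, -4.75 and -4.47 in the naive and -4.41, -4.40 and -4.39 in the primed libraries. The primed libraries were almost identical on this ratio, the shallow one included, and the difference of the means was -0.24 (exact permutation p = 0.1). For LTR7B the difference was -0.94 (exact permutation p = 0.1) and for LTR7C -1.43 (exact permutation p = 0.1), both with no overlap between the groups. For LTR7Y it was -0.63 with overlap (exact permutation p = 0.2). In LTR7B the lowest primed library, primed library 2, exceeded the highest naive one, naive library 3, by little (-6.20 against -6.22). A lower ratio to HERVH-int was not special to LTR7 names: 48.9% of the other names tested, and 45.8% of the 253 LTR names tested, had every naive library below every primed one on the same ratio.

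**Figure D4:**
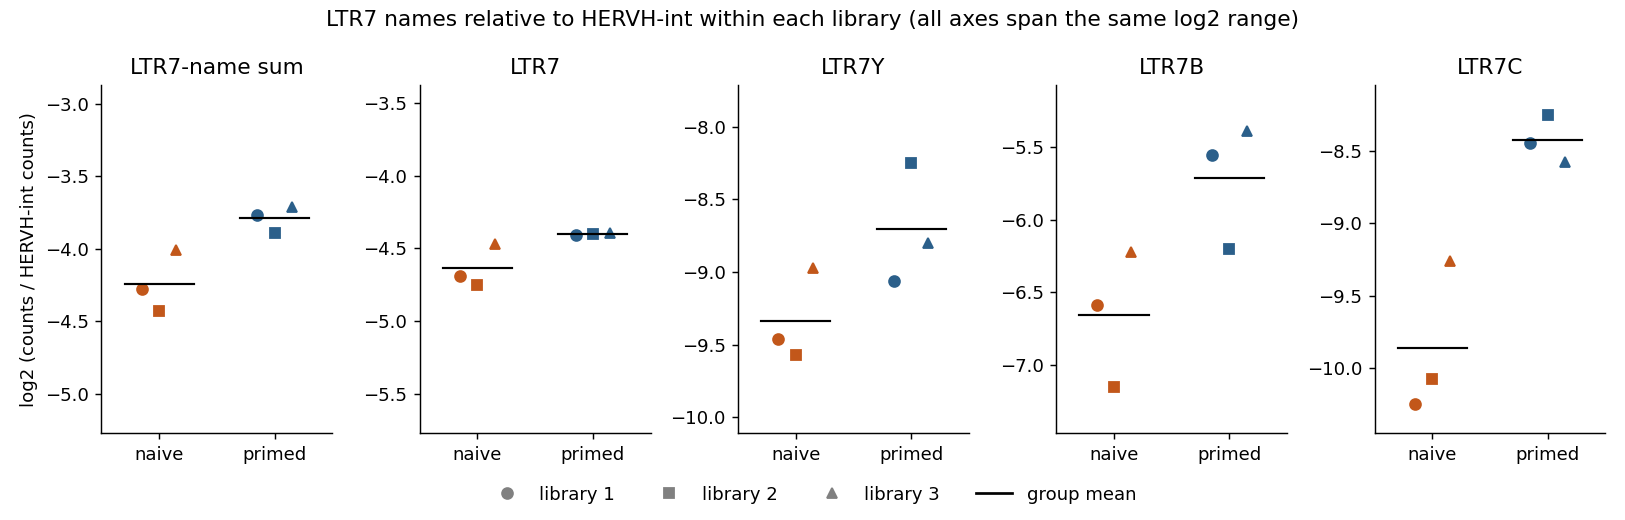
Log2 of the counts of the LTR7-name sum, LTR7, LTR7Y, LTR7B and LTR7C (panels) divided by HERVH-int counts in each library, with a line at each group mean and axes of equal span. Naive points lie below primed points in 4 panels and overlap for LTR7Y, and the 3 primed libraries nearly coincide for LTR7.

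The HERVH family (the 5 names summed, of which HERVH-int made up 92.9% to 95.6%) took 2.59%, 2.79% and 2.18% of all counts in the naive and 1.91%, 1.92% and 1.93% in the primed libraries. All naive libraries lay above all primed ones (exact permutation p = 0.1). With alpha satellite and ribosomal RNA entries left out of the total the shares were 3.77%, 5.40% and 3.34% in the naive and 2.33%, 2.01% and 2.11% in the primed libraries, a wider gap of 2.02 percentage points (exact permutation p = 0.1). The entries left out took more of every naive total than of any primed total. Leaving them out therefore raises the naive share of any remaining name relative to its primed share, so the widening is not particular to HERVH. How many other names lay higher in every naive library on this total was not counted. On the TMM scale it was 19.4% of the names tested. Of the counts in names starting with HERV or LTR, the family took 41.1%, 48.6% and 41.0% in the naive and 42.5%, 34.8% and 37.3% in the primed libraries. Primed library 1 lay above naive libraries 1 and 3 on this measure, so the groups overlapped (5.35 points, exact permutation p = 0.3). The difference was 2.83 points without naive library 2 (exact permutation p = 0.4). HERVH thus held a large part of the HERV and LTR counts in both states. Depth also differed between the groups, and its part in these differences was not tested. Without the shallow primed library 2 HERVH-int was at 1.04 (log2; edgeR adjusted p = 0.0206) and LTR7 at 0.78 (edgeR adjusted p = 0.0263).

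**Figure D5:**
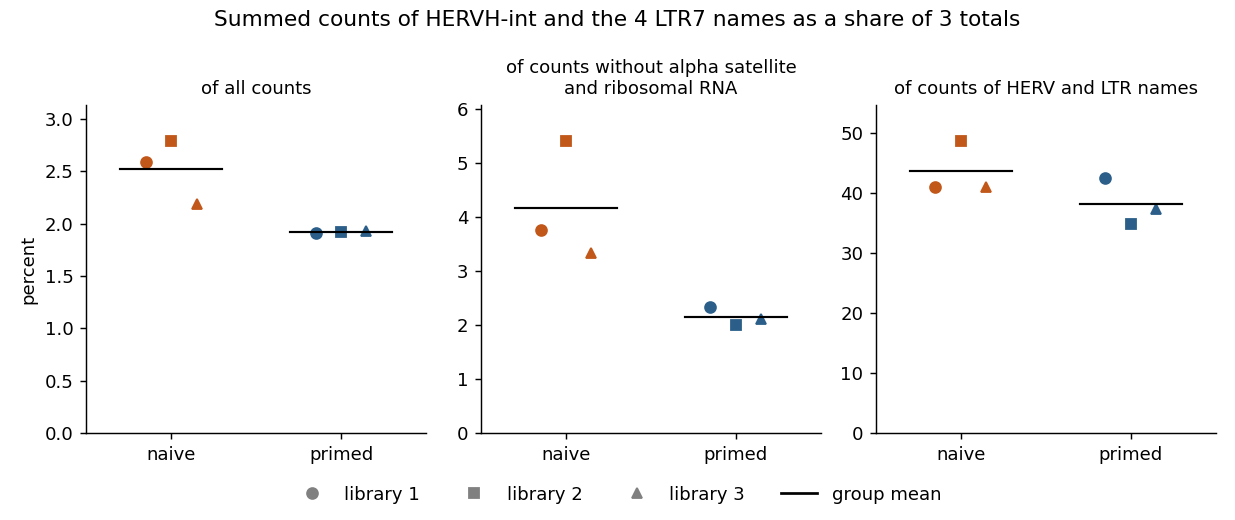
Summed counts of HERVH-int and the 4 LTR7 names as a percent of all counts (left), of counts without alpha satellite and ribosomal RNA entries (middle) and of the counts of names starting with HERV or LTR (right), with 1 point per library and a line at each group mean. The naive libraries lie above the primed ones in the first 2 panels and overlap with them in the third, where primed library 1 reaches 42.5%.

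Among the close relatives of HERVH that passed the filter on low counts, no change passed the threshold with all libraries. Whether they differ from HERVH-int was not tested. Of 9 names found from a list of HERVH48, HERVFH and HERV-Fc entries, related gammaretrovirus-like groups, 5 passed the filter on low counts and 0 were called in either direction by edgeR or DESeq2, with 1 at an unadjusted p under 0.05. Their log2 changes were -0.28 ± 0.14 for HERVH48-int, 0.51 ± 0.20 for HERVFH21-int, -0.37 ± 0.23 for HERVFH19-int, 0.28 ± 0.18 for HERV-Fc2-int and 0.71 ± 0.43 for HERV-Fc1-int (log2, SE; edgeR adjusted p between 0.101 and 0.303). For HERV-Fc1-int the mean CPM ran the other way (8.55 ± 3.71 in the naive and 8.76 ± 6.996 in the primed libraries; SD, n = 3), with 3 counts in primed library 2. Without naive library 1 HERVFH21-int passed at 0.67 (edgeR adjusted p = 0.0275). With no filter 1 name of the list was called higher by edgeR, where 860 of 10175 names were called in either direction. HERVH48-int, the relative with the most counts, averaged 95.6 ± 8.56 CPM in the naive and 119 ± 13.4 CPM in the primed libraries (SD, n = 3). The median of the 5 was 0.28, against 0.56 for the HERVH and LTR7 names, 0.32 for all HERV and LTR names and -0.0046 for all names tested. With library size only these medians were -0.38, -0.0809, -0.30 and -0.61, so each was below 0.

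Beside HERVH, 14 of 38 other HERV internal regions rose and 0 fell, while 24 missed the threshold. Their median log2 change was 0.49. With library size only 1 of them rose and the median was -0.17, and 3 rose both without simple repeats and among HERV and LTR names alone. Of these 38, 3 had a larger change than HERVH-int, namely HERVK-int at 3.62 ± 0.30 (log2, SE; edgeR adjusted p = 7.88e-05), HERV30-int at 1.38 ± 0.29 (0.0177) and HERV15-int at 1.37 ± 0.31 (0.0236). HERVK-int is the internal region of the youngest human retrovirus group, and HERV15-int was named after its value was seen. Among 249 other LTR names tested 31 rose and 2 fell, with a median of 0.32. With library size only 1 rose and the median was -0.31, while 5 rose without simple repeats, 4 among HERV and LTR names and 59 with the replicate number as a block. The largest changes were those of LTR5_Hs (1.59 ± 0.21; edgeR adjusted p = 0.00443), the LTR of HERVK, and LTR28 (1.51 ± 0.29; edgeR adjusted p = 0.0135). Without primed library 1, 1 of the 38 internal regions, HERVK-int, and 1 of the other LTR names, LTR5_Hs, rose. HERV30-int (1.13; edgeR adjusted p = 0.150), HERV15-int (1.39; 0.157) and LTR28 (1.40; 0.104) then missed the threshold, and HERV15-int also did without primed library 3 (1.41; 0.0528). Of 5 names known from early human embryos 3 rose: HERVK-int, LTR5_Hs and HERVL-int (0.62 ± 0.16; edgeR adjusted p = 0.0302). MLT2A1 (0.42 ± 0.14; edgeR adjusted p = 0.0693) and MLT2A2 (0.13 ± 0.15; edgeR adjusted p = 0.581), the LTRs of HERVL, did not pass. The HERVL-int call was lost without primed library 1 (0.46; edgeR adjusted p = 0.199) or naive library 2 (0.58; 0.0727). In the HERV9 and LTR12 list, a further retroviral group, 1 of 9 rose, HERV9NC-int (0.54 ± 0.13; edgeR adjusted p = 0.0239), and the median was 0.29. That call was lost without the same libraries (0.49; edgeR adjusted p = 0.157, and 0.57; 0.0647). It was also lost with upper-quartile factors, with library size only (list median -0.36), without simple repeats and among HERV and LTR names.

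LTR7 had the library profile most like that of HERVH-int. Likeness was the root mean square distance between log2 CPM profiles (TMM-scaled, each centred on its own mean) over the 6 libraries, among 568 other named repeats with a mean of at least 100 CPM. The distance was 0.15 for LTR7, followed by LTR49-int (0.22), LTR5_Hs (0.27), MER61-int (0.28) and the L1 fragment L1M3c (0.28). LTR7B came in place 415 with a distance of 0.60. The profiles nearest to LTR7B were those of HAL1M8 (0.11), LTR40b (0.13) and AluJr4 (0.13), names whose log2 changes were 0.16, 0.12 and 0.08, and LTR7 came in place 459 for it. LTR7Y and LTR7C were below the level needed for this ranking. The points of a profile share their library's depth and scaling. In the LTR7B profile the value furthest from the others was that of primed library 2 (162 CPM), which rests on 29 counts. No ranking was made without that library.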

How the data were processed

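RNA of the chromatin fraction was extracted on columns and made into libraries with a directional kit, per the labels' protocols. Per the submitters' processing notes, the authors used Trimmomatic 0.39, STAR 2.7.8a, featureCounts and Subread 2.14.2. The build, annotation of repeats, strandedness and counting of multi-mapping reads were not given in the sources used here. The deposited values are raw counts per repeat name. 

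Columns were matched to samples by title and grouped by the treatment label. The 5 members and all lists were chosen with earlier results of these data known. The whole table was fitted with edgeR 4.0.16 in R 4.3.3 (filterByExpr, TMM factors, quasi-likelihood F-test, Benjamini-Hochberg adjustment, threshold 0.05), and 3219 names were tested. The SE is the size of the log2 change over the root of F. The procedure was tested on simulated data, with changes drawn in both directions and no shift in composition like that of alpha satellite here. That test does not bear on the choice of scaling. Shares and log2 ratios of counts (no pseudocount) were compared by exact two-sided permutation tests. Alternatives were RLE, upper-quartile or no factors, DESeq2 1.42.0, other filters, subsets of names, the replicate number as a block and each library left out. Named repeats are the members, 2 lists in full, the 2 largest called changes of each other list, and the nearest profiles (prior count 2). Figures used matplotlib 3.10.9 in Python 3.11.15.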

Additional observations from a re-analysis of the deposited data

How the results depend on the processing

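HERVH-int kept its direction and call in 13 of 16 alternatives and LTR7 in 12 of 16. HERVH-int lost the call with library size only (0.42), without simple repeats (0.90) and among HERV and LTR names (0.77), and LTR7 in the same fits (0.17, 0.62 and 0.49) and without primed library 1 (0.95). Over the fits without 1 library the log2 change ran from 0.89 to 1.32 for HERVH-int, 0.69 to 0.999 for LTR7, 0.46 to 0.72 for LTR7Y, -0.18 to 0.13 for LTR7B and -0.42 to -0.0643 for LTR7C. Without simple repeats LTR7Y was at 0.36. LTR7Y turned to -0.0809 with library size only, where LTR7C became a call at -0.94, and LTR7Y became one without naive library 1 (0.72). LTR7B, near 0, turned to -0.0318 with RLE factors, -0.0911 with upper-quartile factors, -0.60 with library size only, -0.0067 with a CPM of at least 1 in 3 libraries, -0.0456 without alpha satellite and ribosomal RNA, -0.25 without simple repeats, -0.38 among HERV and LTR names, -0.0200 with DESeq2, -0.0294 without naive library 3 and -0.18 without primed library 2. The cause of these changes was not tested.

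Of 101 alternatives to the shares and ratios 99 kept the direction. The 101 include the replicate block of each measure, which could not change it. Where the groups did not overlap, leaving out 1 library or summing the counts of a share could not change it either. These alternatives add no support. The LTR7Y share, whose difference ran from -0.97 to 0.18 points over the fits without 1 library, turned to 0.18 points both without primed library 2 and from summed counts. No share test could pass at this number of libraries.

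With the replicate number as a block HERVH-int stood at 1.10, LTR7 at 0.84, LTR7Y at 0.46, LTR7B at 0.0766 and LTR7C at -0.42, with no call among them gained or lost, while the number of calls over all names went from 409 to 638. Deviations of same-numbered libraries correlated at 0.146, 0.0867 and 0.0659, each library best with its own number, which is a hint from the data and not from the design. The replicate block left the differences in shares and ratios as they were, since it averages the same differences (smallest exact permutation p = 0.25).

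Calls in the lists moved by over 1.5 times in 26 of 96 alternatives. Counts over all names were 1079 with library size only, 860 with no filter, 199 with DESeq2, 48 without simple repeats, 17 among HERV and LTR names, and 15 to 651 without 1 library. Depth limits LTR7Y, LTR7B and LTR7C in primed library 2, which has 7, 29 and 7 counts.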
